A study of Mus musculus with 8 samples.

Results

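The collagen genes of the mouse were followed across kidney, lung, liver and small intestine. They are all genes of the deposited expression table whose symbol has the form Col, a type number, the letter a and a chain number, and 44 of the 52195 genes in the table met this rule. The values come from bulk RNA sequencing of poly(A) RNA from whole tissue pieces of C57BL/6 mice (C57BL/6J males, per the methods of the study) aged 6 to 10 weeks, with 2 libraries for each of 4 tissues and 8 libraries in all. The labels name no treatment and no genetic modification in any group. The 2 libraries of a tissue are described as biological replicates, and all tests below measure the spread between such pairs. Values are FPKM, fragments scaled by exon length and by the library's reads on genes, so they can be compared between genes in a library. Between tissues they also depend on how the libraries are scaled. In bulk tissue, fewer cells of a type and less RNA per cell cannot be told apart.

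Collagens are proteins of the extracellular matrix built from 3 polypeptide chains wound into a triple helix, and each gene encodes 1 kind of chain. Fibrillar collagens (types I, II, III, V, XI, XXIV and XXVII) form the banded fibrils that carry tension. Type IV chains form the network of basement membranes, the sheets under epithelia and around capillaries, and type VI forms beaded filaments that run between fibrils and basement membranes. Types VIII and X form hexagonal networks. FACIT collagens sit on the surface of fibrils, type VII anchors basement membranes to the tissue below, types XIII, XVII, XXIII and XXV span the cell membrane, and the multiplexins XV and XVIII carry sugar chains and lie in or near basement membranes. In kidney the chains α3, α4 and α5 of type IV make the filter of the glomerulus, and in lung the same chains line the alveoli.

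The collagen genes took 0.318% and 0.298% of the reads on genes in the lung libraries, against 0.0851% and 0.0365% in kidney, 0.0539% and 0.0427% in small intestine, and 0.0562% and 0.0570% in liver. Their summed FPKM was 410 and 388 in lung, 99.3 and 44.0 in kidney, 70.8 and 55.9 in small intestine, and 76.6 and 77.2 in liver. The lung libraries were therefore above all others, and the 2 kidney libraries lay on either side of those of liver and small intestine. After median-of-ratios scaling, a rescaling of the libraries that centres the typical gene, the sums were 226 and 205 in lung, 139 and 123 in liver, 96.7 and 61.4 in kidney, and 64.3 and 53.5 in small intestine. Lung was still above all others after it, but by less, and both liver libraries then lay above both kidney libraries. The make-up of the total also differed between tissues. Type IV chains held 61.8% and 61.3% of the collagen FPKM in kidney, 38.1% and 40.7% in lung, 20.4% and 20.0% in small intestine and 5.75% and 5.19% in liver. Fibrillar collagens held 33.2% and 29.1% in lung and 32.6% and 34.1% in small intestine, but 13.2% and 11.7% in kidney and 12.9% and 15.7% in liver. In liver 1 gene, Col18a1, held 72.5% and 70.9% of the collagen FPKM. The gene with the highest collagen FPKM was Col4a1 in both lung libraries and Col6a1 in both small intestine libraries, whereas the kidney libraries were led by Col4a4 in replicate 1 and by Col4a1 in replicate 2. Reaching 90% of the collagen FPKM took 8 genes in each liver library and 13 to 15 genes in every other library. These shares lie within a library and do not depend on how the libraries were scaled to each other.

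**Figure D1:**
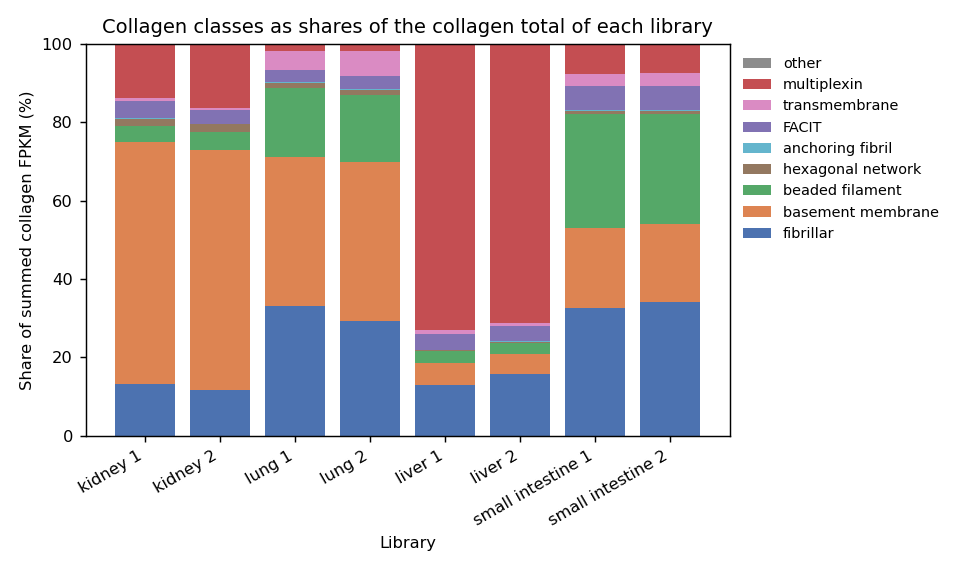
Share of the summed collagen FPKM held by each collagen class (y axis, percent) in each of the 8 libraries (x axis), with classes stacked. Basement membrane chains fill 61.8% and 61.3% of the kidney bars and multiplexins 73.0% and 71.3% of the liver bars, while the lung and small intestine bars hold similar fibrillar parts.

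Depth set what could be seen of the rare chains. The libraries held between 9164187 and 21444675 reads on genes, the deepest being the 2 kidney libraries, and 3 reads on a gene of 1 kb corresponded to an FPKM of 0.140 to 0.327. Between 32 and 43 of the 44 collagen genes were above 0 in a library, and 26 to 40 had 3 reads or more. Tests were run on log2(FPKM + 1) with limma over all 16328 genes that reached an FPKM of 1 in 2 or more libraries, and a gene was called where its Benjamini-Hochberg adjusted p was under 0.05 and its log2 difference from the mean of the other 3 tissues was over 1 in size. Of the collagen genes 27 entered the tests and 17 did not. Of the 27, 7 had reached an FPKM of 1 in a single tissue: Col4a6, Col8a2, Col12a1, Col13a1 and Col20a1 in lung, Col5a3 in liver and Col6a4 in small intestine. The filter had thus let them in through the tissue where they were high, so their differences are given below as descriptions, without p-values.

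Scaling between the tissues mattered. The median log2 difference over all 16328 genes was 0.82 in lung, -0.01 in small intestine, -0.34 in kidney and -0.72 in liver with the deposited values, and -0.02, -0.05, -0.11 and -0.14 after median-of-ratios scaling. Collagen calls of a tissue against the other 3 are therefore given under both. For direct comparisons between tissues, counts under both are given for lung against kidney and lung against liver. Among the 27 tested collagen genes, 20 were called higher in lung and 1 lower, beside 40.7% and 8.26% of all tested genes, and 16 and 1 after the rescaling, beside 14.6% and 16.0%. In kidney 2 were called higher and 7 lower, beside 8.65% and 16.1% of all tested genes, and 3 and 6 after the rescaling, beside 11.5% and 12.1%. In liver 2 were called higher and 14 lower, beside 6.56% and 32.7% of all tested genes, and 2 and 10 after the rescaling, beside 12.3% and 14.0%. In small intestine 1 was called higher and 4 lower, beside 13.7% and 11.3% of all tested genes, and 1 and 5 after the rescaling, beside 13.0% and 11.6%. The counts of higher calls include genes that entered the tests through the same tissue, Col4a6, Col8a2, Col12a1 and Col13a1 in lung, Col5a3 in liver and Col6a4 in small intestine, where it was the sole higher call. Without them 16 collagens were called higher in lung (15 after the rescaling) and 1 in liver. The median log2 difference of the tested collagens was 2.13 in lung, -0.43 in small intestine, -0.47 in kidney and -1.07 in liver, and 1.28, -0.33, -0.32 and -0.58 after the rescaling. Over all 44 collagens without any filter, both lung libraries lay above the other 6 libraries for 26, against 37.4% of the 30154 genes above 0 in any library. The same held for 3 collagens in kidney (6.84% of all genes), 2 in liver (4.16%) and 2 in small intestine (10.1%). After the rescaling these counts were 22, 5, 4 and 3, beside 17.6%, 9.80%, 10.6% and 12.7% of all genes.

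**Figure D2:**
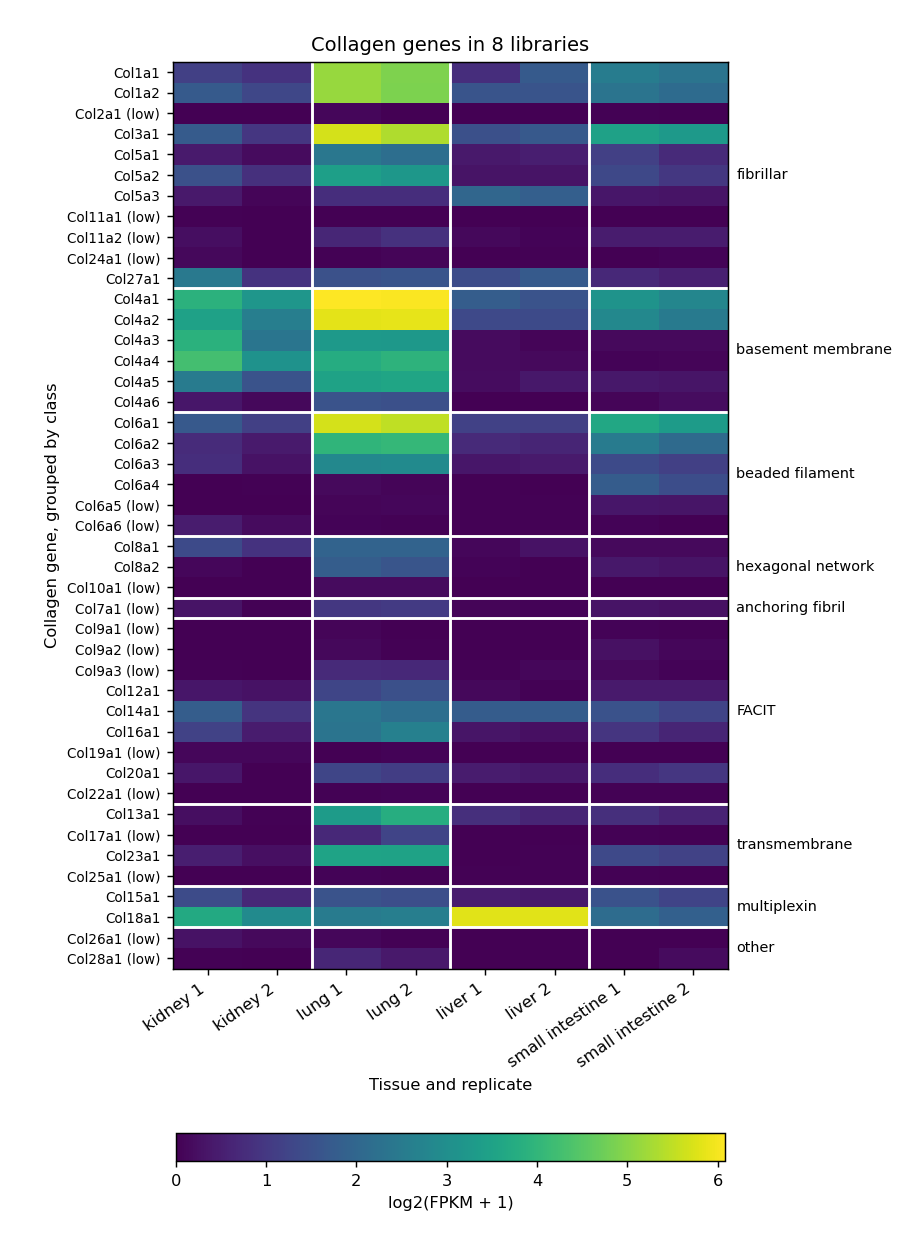
Level of each of the 44 collagen genes as log2(FPKM + 1) (colour) in the 8 libraries (columns), with genes in rows grouped by class and genes that did not enter the tests marked low. The lung columns are bright for most types I, III, IV and VI chains, the kidney columns for type IV chains, and the liver columns for Col18a1.

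The type IV chains fell into different patterns. The 6 genes lie as 3 pairs, and within each pair the genes point away from each other. Col4a1 (chromosome 8, 11198423 to 11312826, minus strand) and Col4a2 (11312805 to 11449287, plus strand) have start sites whose annotated first exons share 22 bases. Col4a4 (chromosome 1, 82448423 to 82586849, minus strand) and Col4a3 (82586921 to 82722059, plus strand) start 71 bases apart. Col4a6 (chromosome X, 141165403 to 141474076, minus strand) and Col4a5 (141475385 to 141689234, plus strand) start 1308 bases apart. All coordinates are GENCODE M21 on GRCm38. The whole stretch between Col4a4 and Col4a3 is shown, and the ratio of Col4a3 to Col4a4 lay between 0.548 and 2.13 over 8 libraries. Beside it stand the bases just before the start sites of Col4a5 and Col4a6, whose ratio lay between 1.83 and 20.4 over 6 libraries. In small intestine these ratios rested on few reads, 5 and 7 of Col4a4 and 5 and 13 of Col4a6. A link between sequence and ratio was not tested. The sequences are RefSeq, GRCm38.p6, 5′ to 3′ on the strand given, and capitals mark a GC box (GGGCGG or its reverse complement CCGCCC).
Col4a3-Col4a4 gap (chr1:82586850-82586920, minus strand): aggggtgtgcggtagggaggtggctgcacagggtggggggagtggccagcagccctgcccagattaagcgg
Col4a5 (chrX:141475265-141475384, plus strand): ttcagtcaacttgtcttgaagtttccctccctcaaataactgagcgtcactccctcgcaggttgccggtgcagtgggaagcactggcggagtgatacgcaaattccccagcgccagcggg
Col4a6 (chrX:141474077-141474196, minus strand): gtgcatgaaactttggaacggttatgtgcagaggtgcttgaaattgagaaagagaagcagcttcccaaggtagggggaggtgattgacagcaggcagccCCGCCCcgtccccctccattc
The gap between Col4a4 and Col4a3 held no TATAAA, no CCAAT and no GGGCGG on either strand, and the printed stretch of Col4a6 held 1 GC box. Within 250 bases before the start, TATAAA was present on either strand in 12.4% of all 32851 RefSeq promoter windows and in 5 of the 38 collagen windows, CCAAT in 33.8% and 13, and GGGCGG in 32.7% and 22. The 38 windows belong to 35 of the 44 collagen genes. These are letters in a window and not shown binding sites.

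Col4a1 and Col4a2 encode the chains found in nearly all basement membranes. Col4a1 had an FPKM of 66.8 and 65.1 in the lung libraries, 14.0 and 8.12 in kidney, 7.71 and 5.93 in small intestine and 2.47 and 1.95 in liver. Col4a2 had 55.6 and 57.0 in lung, 10.2 and 5.11 in kidney, 6.20 and 4.66 in small intestine and 1.52 and 1.58 in liver. Both genes ran in the order lung, kidney, small intestine, liver and only the kidney and small intestine libraries of Col4a2 overlapped between neighbours in that order. Their ratio stayed between 1.14 and 1.63 in all 8 libraries. Col4a2 was the type IV gene with the largest difference in lung, 3.48 ± 0.23 (SE) on the log2 scale with an adjusted p of 6.63e-06 in limma, and 2.41 after the rescaling. With the deposited scaling Col4a1 had the largest difference in liver, -2.51 ± 0.21 with an adjusted p of 3.42e-05 in limma. After the rescaling it was -1.69 and no longer the largest.

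The chains α3 and α4 followed another pattern. Col4a3 had an FPKM of 13.8 and 4.14 in kidney and 8.83 and 8.53 in lung, but 0.107 and 0.106 in small intestine and 0.131 and 0.0680 in liver. Col4a4 had 18.2 and 7.57 in kidney and 12.5 and 14.3 in lung, but 0.0503 and 0.0583 in small intestine and 0.123 and 0.110 in liver. Every kidney and lung library was therefore far above every liver and small intestine library for both chains, while kidney and lung overlapped. Col4a4 differed from the other 3 tissues by 2.32 ± 0.28 (SE, log2 scale) in kidney (adjusted p = 0.00031, limma) and by -2.49 ± 0.28 in small intestine (adjusted p = 0.000205, limma), and these differences were 2.75 and -2.32 after the rescaling. Col4a3 was the other chain called higher in kidney, at 1.94 ± 0.35 with an adjusted p of 0.0023 in limma. Kidney against lung differed by -0.15 ± 0.43 for Col4a3 and -0.17 ± 0.34 for Col4a4 on the log2 scale, with adjusted p of 0.77 and 0.68 in limma. After the rescaling the same differences turned to 0.80 and 0.84 (adjusted p = 0.066 and 0.016 in limma), still under the size needed for a call. Scaled this way, Col4a4 was at 17.7 and 10.6 in kidney against 6.93 and 7.54 in lung. Of the exon bases of Col4a3, 5.65% also belong to another annotated gene.

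Col4a5, the third chain of that network, was high in lung (10.4 and 10.9) and lower in kidney (4.82 and 1.93), with 0.318 and 0.263 in small intestine and 0.146 and 0.303 in liver. It was called higher in lung, and its kidney difference of 0.65 ± 0.25 passed neither part of the call (adjusted p = 0.057, limma) until the rescaling brought it to 1.01. Col4a6, a chain of some epithelial and smooth muscle basement membranes, was at 1.94 and 1.82 in lung, 0.292 and 0.0942 in kidney, 0.0670 and 0.144 in small intestine and 0.0137 and 0 in liver. The liver values rest on 1 read and on none (a count of 0 allows up to 3 reads), and it is described without a test, having entered through lung. The ratio of Col4a5 to Col4a6 was 16.5 and 20.4 in kidney, 5.34 and 6.00 in lung and 4.75 and 1.83 in small intestine.

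The make-up of type IV can be put in 1 number per library. The chains α3, α4 and α5 together held 60.0% and 50.6% of the type IV FPKM in kidney, 20.3% and 21.4% in lung, 3.29% and 3.83% in small intestine and 9.11% and 12% in liver. The ratio of Col4a3 to Col4a1 was 0.990 and 0.510 in kidney, 0.132 and 0.131 in lung and at most 0.0532 in the other libraries. Kidney was thus the tissue with the greatest part of these chains within type IV, although Col4a5 itself was higher in both lung libraries. In absolute level Col4a3 and Col4a4 overlapped between kidney and lung with the deposited scaling, and both kidney libraries lay above both lung libraries after the rescaling.

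**Figure D3:**
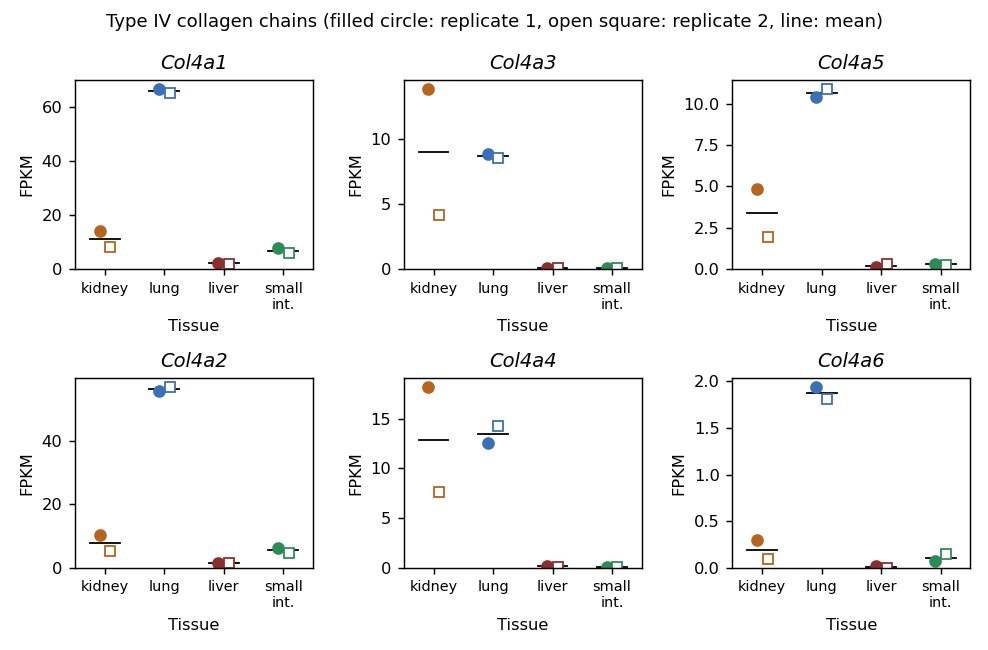
FPKM of each type IV chain (y axes, linear, from 0) in each library by tissue (x axes), with a line at the tissue mean. Col4a1 and Col4a2 are highest in both lung libraries, whereas Col4a3 and Col4a4 are present in kidney and lung and near 0 in liver and small intestine, and kidney replicate 2 lies below replicate 1 in all 6 panels.

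The kidney libraries did not match each other as well as those of the other tissues. Of the 27 tested collagens, 26 were higher in kidney replicate 1 than in replicate 2, beside 72.9% of all tested genes. The 8 collagens with an FPKM of 1 or more in both kidney libraries were 1.56 to 3.34 times as high in replicate 1, with a median of 1.92, beside a median of 1.23 for all genes at that level. The corresponding median ratio was 1.03 in lung, 1.30 in small intestine and 1.01 in liver. Markers of other cells were not even between these libraries either. Podxl, a surface protein of podocytes, the filter cells of the glomerulus, had an FPKM of 23.5 in kidney replicate 1 and 7.27 in replicate 2. The 5 endothelial markers summed to 24.6 and 12.7. Of the 3 tubule markers, Slc34a1 (987 and 655) and Umod (753 and 554) ran the same way and Aqp2 ran the other way (80.1 and 119.9), as did the hepatocyte sum (72.5 and 137) and the adipocyte sum (0.637 and 1.75). Their part in the collagen difference was not tested. Each collagen called higher in kidney kept its call without kidney replicate 1 and without kidney replicate 2, and the number called higher was 2 and 4 in those fits.

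Podocyte markers also bear on where the α3 and α4 chains were seen. Podxl, which endothelium also expresses, was called higher in kidney and, at an FPKM of 48.9 and 50.5, in lung as well. Wt1, a transcription factor of podocytes that missed the filter on low values, had 1.43 and 0.550 in kidney and at most 0.512 elsewhere. Synpo, an actin-associated protein of podocytes, was called higher in small intestine, with 6.45 and 7.89 there and 3.16 and 1.31 in kidney. Markers of alveolar type 1 cells (Ager, Hopx and Rtkn2) were all called higher in lung, with sums of 1049 and 1329, and their sum stayed at or below 25.3 in every other library. Which cells carried the type IV transcripts was not tested.

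Among fibrillar collagens, types I and III were highest in lung and led the class there and in small intestine, whereas Col27a1 led it in kidney replicate 1 and Col5a3 in both liver libraries. Col1a1, the α1 chain of the main fibril protein, had an FPKM of 34.1 and 29.0 in lung, 4.85 and 4.10 in small intestine, 1.21 and 0.863 in kidney and 0.748 and 2.30 in liver. Col1a2, its partner, had 34.1 and 28.4 in lung, 4.08 and 3.38 in small intestine, 2.28 and 1.46 in kidney and 1.99 and 1.99 in liver. Both lung libraries were at least 5.97 times as high as any other library for Col1a1, and kidney and liver overlapped. Col3a1, the chain of the finer fibrils of soft organs, had 50.4 and 40.0 in lung, 10.2 and 8.79 in small intestine, 2.35 and 0.959 in kidney and 1.79 and 2.22 in liver. Small intestine was second for all of these genes, above every kidney and liver library, but after the rescaling it overlapped with liver for Col1a2.

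Col1a1 had the largest fibrillar difference in lung, 3.44 ± 0.24 (SE) on the log2 scale with an adjusted p of 9.69e-06 in limma, and 2.42 after the rescaling. In a two-sided exact permutation test over samples, the 2 lung libraries against the other 6 gave p = 0.0357, which is the smallest the 28 possible arrangements allow. Col3a1 had the largest difference in kidney, -2.14 ± 0.22 with an adjusted p of 0.000146 in limma. With the deposited scaling it also had the largest in liver, -1.84 ± 0.22 with an adjusted p of 0.000209 in limma. This came to -1.01 after the rescaling, when Col5a3 differed more in size. The liver calls of Col1a1 and Col1a2 were lost after the rescaling, at -0.82 and -0.52. The ratio of Col1a1 to Col1a2 was 1.0 and 1.02 in lung and 1.19 and 1.22 in small intestine, but 0.533 and 0.591 in kidney. In liver it was 0.375 in replicate 1 and 1.16 in replicate 2, where the numerator rested on 45 and 156 reads.

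Not every fibrillar chain followed type I. Type V chains regulate the width of type I fibrils, and Col5a1 (4.34 and 3.62) and Col5a2 (9.72 and 8.31) were also highest in lung. Col5a3, the third type V chain, was highest in liver: 3.0 and 2.56 in liver, 0.737 and 0.745 in lung, 0.329 and 0.0509 in kidney and 0.282 and 0.246 in small intestine. Its liver libraries lay above all 6 others, with a log2 difference of 1.46 ± 0.12 (SE) that grew to 2.17 after the rescaling. Col27a1, a cartilage collagen also made in other tissues, was led by 1 library: 4.48 in kidney replicate 1 and 0.847 in replicate 2, with 1.85 and 1.97 in lung, 0.615 and 0.454 in small intestine and 1.66 and 2.28 in liver. Both small intestine libraries were below all others and the other tissues overlapped. With the deposited scaling it was called in no tissue, and after the rescaling it was called lower in small intestine, at -1.05 (adjusted p = 0.0201, limma).

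The rest of the fibrillar class was scarce. Col11a2 had its highest levels in lung, at 0.570 and 0.813, and 0.375 in each small intestine library. Col24a1 had 15 reads in kidney replicate 1, or an FPKM of 0.0918, and 1 to 5 reads in every other library. Col11a1 had 5 reads in kidney replicate 1 and at most 1 read in each of the others. Col2a1, the main collagen of cartilage, had 5 reads in lung replicate 1 and at most 1 elsewhere. Among the 8 chondrocyte markers present, 5 missed the filter, with Acan at or below an FPKM of 0.10 and Matn3 listed at 0 in all libraries. The 3 tested ones were each called higher in a different tissue under both scalings, Matn4 in lung (10.9 and 11.1), Cnmd in liver (1.24 and 1.42) and Sox9, which epithelia express too, in small intestine (3.54 and 2.22).

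Type VI chains gave the lung its highest beaded filament total, and the small intestine its own chain. Col6a1 had an FPKM of 50.8 and 44.4 in lung, 11.5 and 9.17 in small intestine, 2.25 and 1.23 in kidney and 1.25 and 1.22 in liver. Col6a2 had 14.7 and 15.5 in lung, 4.81 and 3.33 in small intestine, 0.678 and 0.361 in kidney and 0.642 and 0.535 in liver. Col6a3 had 6.11 and 6.51 in lung, 1.58 and 1.23 in small intestine, 0.725 and 0.237 in kidney and 0.292 and 0.356 in liver. These 3 partner chains of the classical type VI monomer thus ran lung, then small intestine, then kidney and liver, which overlapped for each of them. Col6a1 was the gene of its class with the largest difference in 3 tissues: 3.57 ± 0.18 in lung, -1.99 ± 0.18 in kidney and -2.35 ± 0.18 in liver on the log2 scale, with adjusted p of 2.00e-06, 7.90e-05 and 2.53e-05 in limma. The rescaling changed these to 2.54, -1.70 and -1.60. The ratio of Col6a1 to Col6a2 was 1.94 to 3.46 over all libraries, and the share of type VI in the collagen FPKM was highest in small intestine, at 29.2% and 28.1%, against 17.5% and 17.2% in lung.

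Col6a4, Col6a5 and Col6a6 encode alternative chains of type VI that resemble the α3 chain and lie side by side on chromosome 9. Col6a4 (105989454 to 106096783, minus strand) had an FPKM of 2.43 and 1.72 in small intestine, from 194 and 166 reads, and at most 10 reads in every other library, with 0.120 and 0.0566 in lung, 0.0109 and 0.0271 in kidney and 0.0256 and 0 in liver. Its log2 difference from the other 3 tissues was 1.56 ± 0.10 (SE), and 1.5 after the rescaling. Without either small intestine library it no longer met the filter on low values. Col6a5 (105856078 to 105960643) was also highest there, at 0.284 and 0.272 from 25 and 29 reads, with 8 reads at most elsewhere. It had 0.00495 and 0.0123 in kidney, 0.0232 and 0.0206 in liver and 0.0653 and 0.0684 in lung. Col6a6 (105687809 to 105828160) was instead highest in kidney, at 0.376 and 0.126 from 74 and 20 reads, with 4 reads at most in any other library. It had 0.0447 and 0.0263 in lung, 0.0350 and 0 in small intestine and 0.0238 and 0.0317 in liver. Neighbouring genes of 1 cluster therefore had their highest libraries in different tissues, and only Col6a4 was abundant enough to be tested.

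Of the 2 multiplexins, Col18a1 differed in direction from most collagens. It encodes a collagen of basement membranes that carries heparan sulphate and whose end fragment is endostatin. Its gene covers chromosome 10, 77052178 to 77166548, on the minus strand, and the bases just before its upstream annotated start are shown because this gene set the liver pattern, with GC boxes in capitals.
Col18a1 (chr10:77166549-77166668, minus strand): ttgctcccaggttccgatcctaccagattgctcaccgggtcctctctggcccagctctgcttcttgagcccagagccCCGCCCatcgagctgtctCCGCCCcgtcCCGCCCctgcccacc
The stretch held 3 GC boxes and no TATAAA or CCAAT, and the table of expression values does not separate transcripts from this start and from the downstream start.

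Col18a1 had an FPKM of 55.5 and 54.7 in liver, 11.9 and 6.49 in kidney, 4.76 and 5.07 in lung and 3.44 and 2.63 in small intestine. Its liver libraries were at least 4.60 times as high as any other library. The differences were 3.19 ± 0.21 in liver, -1.14 ± 0.21 in lung and -1.88 ± 0.21 in small intestine on the log2 scale, with adjusted p of 1.17e-05, 0.00148 and 0.000190 in limma. After the rescaling they were 4.14, -2.13 and -2.05. Under both scalings Col18a1 was the only collagen called lower in lung. Col15a1, the related chain of muscle and capillary basement membranes, had 1.95 and 1.77 in lung, 1.90 and 1.38 in small intestine, 1.63 and 0.610 in kidney and 0.378 and 0.320 in liver, and was called in no tissue against the other 3. The ratio of Col15a1 to Col18a1 was 0.553 and 0.524 in small intestine, 0.410 and 0.350 in lung, 0.137 and 0.0939 in kidney, and 0.00681 and 0.00586 in liver.

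Hepatocyte markers were high in the liver libraries, with Alb, Apob and Ttr summing to 38543 and 33145. Of the 5 markers of hepatic stellate cells, the vitamin A storing cells known to make matrix in liver, 2 passed the filter, and Colec10 was called higher in liver at 3.28 and 3.51. The other, Lrat, was at 2.28 and 1.72 in liver and was called higher in lung at 12.4 and 7.19, a call that was lost after the rescaling. The marker sum of this list was 13.4 and 8.46 in lung, 9.27 and 7.58 in small intestine, 7.20 and 7.77 in liver and 0.953 and 0.641 in kidney. Which liver cells carried Col18a1 and Col5a3 was not tested.

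The transmembrane collagens were mostly lung genes. Col13a1, found at cell junctions, had an FPKM of 9.07 and 12.9 in lung, 0.766 and 0.518 in small intestine, 0.758 and 0.547 in liver and 0.172 and 0.0251 in kidney. Its lung libraries were at least 11.9 times as high as any other library. It differed by 3.04 ± 0.17 (SE, log2 scale) in lung and -1.53 ± 0.17 in kidney, and by 2.15 and -1.37 after the rescaling. Col23a1, a shed membrane collagen, had 10.6 and 10.4 in lung, 1.53 and 1.31 in small intestine, 0.431 and 0.191 in kidney, and 0 and 0.0169 in liver, where it had 0 and 1 reads. Its difference in liver was -1.72 ± 0.13 (adjusted p = 2.53e-05, limma), a fitted value that depends on the added 1 FPKM. Col17a1, which anchors epithelial cells through hemidesmosomes, was below the filter but had 0.622 and 1.38 in lung and at most 0.0185 in any other library. Col25a1 had 5 reads or fewer in each library.

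No gene of the hexagonal network or FACIT classes was above an FPKM of 5.32 in any library. Col8a1, a chain of vessel walls and of the membrane under corneal endothelium, had an FPKM of 2.83 and 2.82 in lung, 1.59 and 0.860 in kidney, 0.105 and 0.121 in small intestine and 0.0855 and 0.228 in liver. Col8a2, its partner, had 2.44 and 2.03 in lung, 0.309 and 0.256 in small intestine, 0.0727 and 0.0129 in kidney and 0.0486 and 0 in liver. Kidney thus held Col8a1 with little Col8a2, and in replicate 1 the ratio was 21.8, against 1.16 and 1.39 in lung. Col8a2 had the larger lung difference, 1.54 ± 0.090 (SE, log2 scale), and 0.99 after the rescaling. The lung call of Col8a1 was lost after it, at 0.76. Col10a1, a collagen of growth plate cartilage, had 5 reads or fewer in each library.

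Among the FACIT collagens, Col14a1 was the most even. It had an FPKM of 4.22 and 3.63 in lung, 2.41 and 2.39 in liver, 2.45 and 0.873 in kidney and 1.89 and 1.39 in small intestine, and was called in no tissue. After the rescaling its liver libraries (4.38 and 3.82) lay above all others. Col16a1 had 4.08 and 5.32 in lung, 1.28 and 0.377 in kidney, 0.918 and 0.536 in small intestine and 0.275 and 0.187 in liver. Its differences were 1.87 ± 0.21 in lung and -1.07 ± 0.21 in liver (adjusted p = 0.000115 and 0.00243, limma), and of these the liver call was lost after the rescaling, at -0.67. Col12a1 was highest in lung, at 1.41 and 1.79. Col20a1 was also highest in lung (1.39 and 1.16), lowest in kidney replicate 2 (0.0112), and called in no tissue, and after the rescaling small intestine (0.679 and 0.904) and lung (0.770 and 0.612) overlapped. Col9a2 was highest in small intestine with 6 and 3 reads, overlapping with lung at 3 and 1. Col19a1 was highest in kidney with 12 and 9 reads, against 3 reads at most elsewhere. Col9a1, Col9a3 and Col22a1 had their highest library in lung, with at most 30 reads in a library.

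Col7a1, the anchoring fibril collagen, was below the filter at 0.976 and 1.06 in lung, 0.240 and 0.0168 in kidney, 0.239 and 0.215 in small intestine and 0.0530 and 0.0471 in liver. Both lung libraries were at least 4.06 times as high as any other. Col26a1 was highest in kidney, at 0.222 and 0.113 from 39 and 16 reads, with 0.0752 and 0.0197 in lung and 0 reads in all liver and small intestine libraries. Col28a1 was highest in lung, at 0.564 and 0.345, with 0.0285 and 0 in kidney, 0 and 0.126 in small intestine and 0 in both liver libraries. A count of 0 in these libraries allows up to 3 reads.

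**Figure D4:**
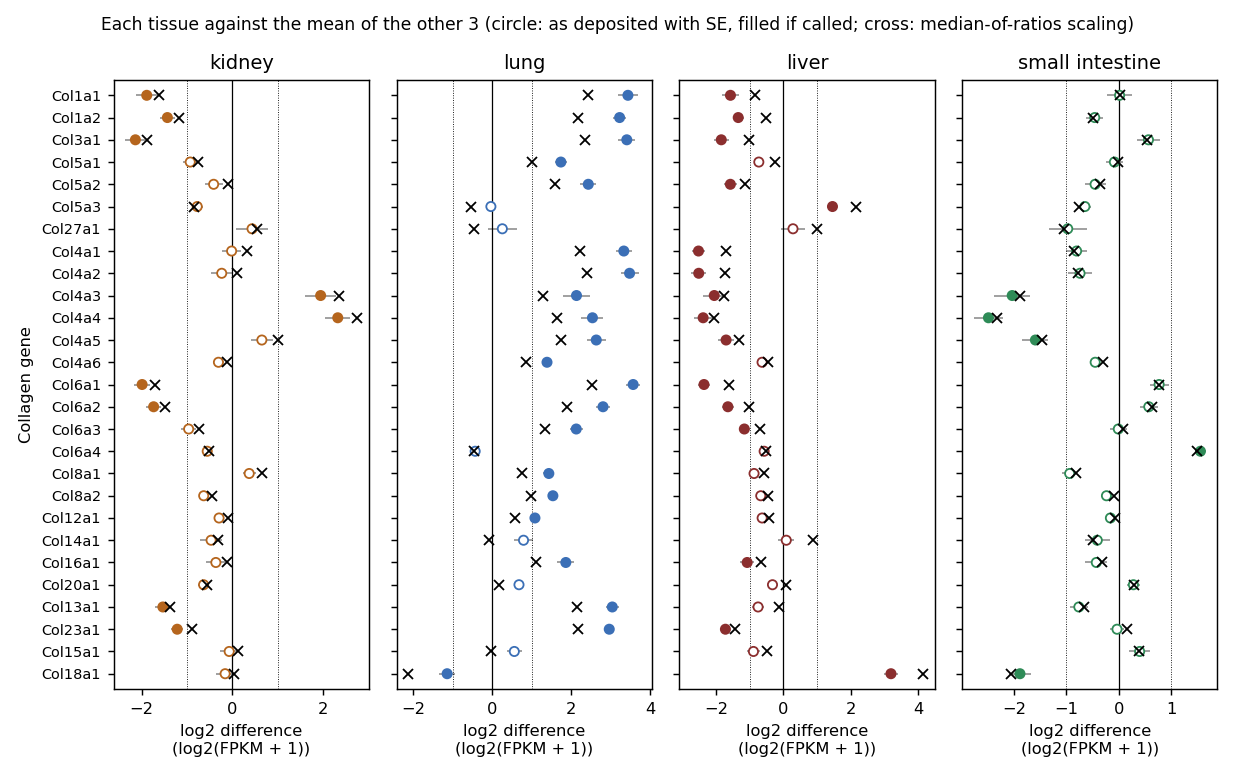
Difference of each tissue from the mean of the other 3 on the log2(FPKM + 1) scale (x axes) for the 27 tested collagens (rows), with the SE as bars, filled circles for called genes and crosses for the value after median-of-ratios scaling. In lung the crosses lie to the left of the circles for every gene, Col4a3 and Col4a4 stand to the right in kidney, Col18a1 and Col5a3 in liver, and Col6a4 in small intestine.

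Direct comparisons between tissues give the order for single genes. The counts include genes that entered the tests through 1 tissue only, such as Col13a1 in lung, Col5a3 in liver and Col6a4 in small intestine. For those genes the order is a description and not a test. Lung was above liver for 21 collagens and below it for 2 (Col5a3 and Col18a1), a contrast that called 62.7% of all tested genes in either direction. Lung was above kidney for 17 and below it for none, where 50.3% of all tested genes were called. Lung was above small intestine for 19 and below it for Col6a4 alone, where 40.6% were called. Kidney was above liver for 5, all type IV chains (Col4a1 to Col4a5), and below it for Col5a3 and Col18a1, where 23.1% were called. Kidney was above small intestine for Col4a3, Col4a4, Col4a5 and Col18a1 and below it for Col1a1, Col3a1, Col6a1, Col6a2 and Col6a4, where 29.5% were called. Liver was above small intestine for Col5a3 and Col18a1 and below it for 8, where 36.2% were called. Among the 8 were Col1a1, Col3a1, Col4a1, Col4a2 and the 3 type VI genes Col6a1, Col6a2 and Col6a4. The calls of Col1a1, Col4a1 and Col4a2 were lost after the rescaling. Each held in 5 of the 7 alternative fits over all 8 libraries. After the rescaling lung was above kidney for 13 collagens and below it for Col18a1, where 34.1% of all tested genes were called. Lung was then above liver for 17 and below it for 3, where 37.2% were called. The counts of the other pairs hold for the deposited scaling alone. No chain of types I, III or VI was called between kidney and liver under either scaling.

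The enzymes that build collagen did not all follow their substrates. The counts of the lists below stand beside 40.7% of all tested genes called higher in lung and 32.7% called lower in liver, and beside 14.6% and 14.0% after the rescaling. In small intestine 13.7% of all tested genes were called higher and 11.3% lower, and in kidney 8.65% and 16.1%. Of the 15 genes for proline and lysine modification, 14 were tested, and 11 were called higher in lung and 1 lower, against 7 lower and 1 higher in small intestine. After the rescaling lung had 7 higher and 1 lower and small intestine 8 lower and 1 higher. The exception in both tissues was P4hb, a subunit of prolyl 4-hydroxylase that also serves other secreted proteins as a disulphide isomerase: 714 and 612 in small intestine, 350 and 291 in liver, 158 and 138 in kidney and 155 and 144 in lung. Colgalt1, which adds galactose to hydroxylysine, was called higher in lung at 32.1 and 30.8, a call that was lost after the rescaling. P3h2, a prolyl 3-hydroxylase that acts on type IV collagen, and Crtap were called higher in kidney. P3h2 was at 16.0 and 7.65 there, against 1.46 and 1.12 in lung and at most 0.214 elsewhere. Crtap was called higher in lung as well, at 26.5 and 31.1 beside 22.1 and 22.7 in kidney.

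Of the 7 genes for folding and secretion, 3 were called higher in lung, a share close to that of all tested genes, and after the rescaling 3 were higher and 2 lower. Serpinh1, the collagen chaperone HSP47, had 153 and 120 in lung, 29.6 and 19.2 in kidney, 15.5 and 13.3 in small intestine and 5.14 and 3.73 in liver. Mia3, which loads procollagen into transport vesicles, had 20.6 and 21.3 in lung and 24.8 and 22.8 in liver, and was called lower in kidney with the deposited scaling alone. The coat genes Sec23a and Sec24d were called higher in small intestine. Of the 7 tested genes for procollagen processing, 4 were called higher in lung and 2 lower (3 and 2 after the rescaling), and 4 were called lower in liver under both scalings, where Bmp1, the C-proteinase, was called higher at 8.05 and 9.93. In kidney 3 were called higher, and Bmp1 and Pcolce2 lower. The lower calls in lung were Mep1a and Mep1b, meprin subunits of the brush border that also cut other proteins, with Mep1a at 377 and 325 in kidney and Mep1b at 302 and 359 in small intestine.

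All 5 tested genes of cross-linking were called higher in lung, and 3 of them still after the rescaling. Loxl1, a lysyl oxidase, had 25.3 and 27.7 in lung and at most 2.25 elsewhere. Pxdn, the peroxidase that links type IV networks, had 11.7 and 15.1 in lung and at most 1.5 elsewhere. Of the 10 degradation genes, 9 were called higher in lung (6 after the rescaling), led by the inhibitor Timp2 at 130 and 151, and 7 lower in liver (5 after the rescaling). Timp3 was the exception in kidney, called higher there at 97.2 and 63.1 while 3 of the list were called lower, and the proteases Mmp9 and Mmp13 were called higher in small intestine while 3 others were lower (2 after the rescaling).

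Of the 8 tested collagen receptors, 6 were called higher in lung and 6 lower in liver, and 5 and 2 after the rescaling. Cd36, a scavenger receptor with many other ligands, had 347 and 359 in lung, and Itgb1, the β1 integrin chain, 146 and 157. Ddr1, a receptor kinase for collagen, was called higher in kidney (15.3 and 9.81) under both scalings. Its higher call in lung and the lower calls of Itga2 and Ddr2 in kidney were lost after the rescaling. All 10 proteins and proteoglycans that bind fibrils were called higher in lung (8 after the rescaling), with Sparc at 473 and 395 and Bgn at 166 and 160. In liver 4 were lower (2 after the rescaling) and Fn1, the fibronectin that hepatocytes secrete into plasma, was higher at 44.5 and 46.0. Of the 15 tested partners of type IV in basement membranes, 12 were called higher in lung (10 after the rescaling), 11 lower in liver (7 after the rescaling), and in kidney 1 each way, with Npnt (nephronectin) higher at 26.2 and 16.7 and Lamb3 lower. Npnt was at 84.1 and 100 in lung and Agrn (agrin) at 18.7 and 23.3.

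Markers of matrix-making cells moved with many of these calls, but not all did. All 7 fibroblast markers were called higher in lung under both scalings. Their sums were 330 and 304 in lung, 40.6 and 38.4 in small intestine, 33.8 and 40.0 in liver and 13.3 and 10.0 in kidney. Dcn and Lum are in this list and also among the fibril-binding proteins above, so these counts overlap. All 5 endothelial markers were called higher in lung, summing to 398 and 481 there and to at most 24.6 in any other library. Of the 4 pericyte and mural markers, Pdgfrb and Notch3 were called higher in lung and Cspg4 was not called there, while Rgs5 was called lower in lung (4.17 and 2.28) and higher in small intestine (28.1 and 23.4), under both scalings. The 4 tested smooth muscle markers were called higher in lung (235 and 240) and in small intestine (244 and 198). Lung also carried heart muscle markers, with sums of 124 and 121 against at most 8.25 elsewhere, and in replicate 1 the skeletal muscle gene Acta1 at 26.7 against 0.262 in replicate 2. Both tested adipocyte markers were called higher in lung under both scalings, and the list summed to 113 and 64.4 there and to at most 20.8 elsewhere. The mesothelial list summed to 166 and 124 in lung and to 353 and 364 in small intestine, where Krt19, an epithelial keratin too, gave nearly all of it. Acinar genes of the pancreas were present in small intestine, with all 5 called higher and sums of 2450 and 1130. The part of these cells in the collagen levels was not tested.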

How the data were processed

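Poly(A) RNA from powdered whole tissue was made into double-stranded cDNA and tagmented libraries, which do not mark the strand. Per the methods of the study, reads were filtered and aligned to an Ensembl mouse genome with STAR (2.5.3a in the submitters' processing notes), and the authors deposited FPKM from the fpkm function of DESeq2. The counting program, and what it did with multi-mapping reads, are not given in the sources used here. The 44 collagen genes, their classes and the lists of pathway and marker genes were chosen with earlier results of these data known, and the result of 1 marker gene is not reported here.

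The contrasts set a tissue against the mean of the 3 others, and tissues with each other, in a single limma fit (version 3.58.1, R 4.3.3, eBayes with a trend) over 4 groups on log2(FPKM + 1), so log2 differences understate the change of low genes. Genes that reached an FPKM of 1 in 2 or more libraries entered the tests, and p-values were adjusted by Benjamini-Hochberg over all of them. The fit was tested on simulated data. FPKM was turned back into reads with GENCODE M21 exon lengths: whole reads within 0.02 came out for every value of 40 collagen genes, and for Col2a1, Col8a1, Col11a2 and Col17a1 the length was taken from the steps of the gene's own values. Reads cover counting error only. Values in every library are given for types I, III, IV and VI, for the 2 most abundant genes of each other class, and for genes highest in another tissue than their class, with limma statistics for the largest difference of each class among the genes called in a tissue and pathway lists by counts with their 2 most abundant genes. Alternatives were a pseudocount of 0.1, no filter, median-of-ratios scaling, quantile normalization, no trend, a replicate block, limma-voom on recovered reads, and each library left out.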

Additional observations from a re-analysis of the deposited data

How the results depend on the processing

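The values for 51 calls of single genes were recomputed under the alternatives, and none of the 751 values changed sign, while 14 could not be had because the gene no longer met the filter without a library. With median-of-ratios scaling 9 of the 51 calls were lost and with quantile normalization 13, in lung for Col4a6, Col8a1, Col8a2 and Col12a1 under both, and in liver for Col1a1, Col1a2, Col6a3 and Col16a1 under both. Col23a1 in kidney was lost under both and with limma-voom on recovered reads, and Col16a1 in liver without kidney replicate 1 (-0.95). The replicate block changed no call: 20 genes stayed called higher in lung and 14 lower in liver. Per the methods of the study, all of these tissues were taken from each mouse. The labels do not say that a replicate number marks a mouse, so the numbers were not treated as pairs. The replicate differences correlated between tissues at -0.22 to 0.053 over 16328 genes, which cannot show whether libraries share a mouse. With a pseudocount of 0.1, 4 genes were called higher and 13 lower in kidney, and 3 higher and 7 lower in small intestine. With limma-voom on recovered reads, 4 were higher and 12 lower in kidney and 4 higher in small intestine. Quantile normalization left 8 lower in liver. The cause of these changes was not tested.

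Leaving out each library in turn gave 2 to 4 genes higher and 6 to 9 lower in kidney, 16 to 20 higher in lung, 1 to 2 higher and 13 to 15 lower in liver, and 0 to 1 higher and 4 to 6 lower in small intestine. The 4 in kidney came without kidney replicate 2, and the lost higher calls in lung, liver and small intestine came from genes that no longer met the filter. The fibrillar share of the collagen total, 33.3% in small intestine, 31.2% in lung, 14.3% in liver and 12.5% in kidney as a mean of the 2 libraries, was 41.6%, 38.7%, 18.6% and 15.7% in recovered reads, which weight long transcripts more. Without Col1a1, Col1a2 and Col3a1 it was 7.39%, 5.65%, 7.67% and 6.18%. Leaving out a library gave 32.6% to 34.1%, 29.1% to 33.2%, 12.9% to 15.7% and 11.7% to 13.2%. With 2 libraries a tissue, precision for single genes rests on the spread shared over all groups, and chains under 3 reads could not be placed.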
